A study of Homo sapiens with 14 samples.

Results

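The zinc finger genes of human chromosome 19 were followed here at the level of RNA splicing, in HEK293T cells with and without a mutation of the splicing factor SF3B1. The set holds every splice event of a gene on chromosome 19 whose symbol is ZNF followed by a digit, of any event type, with a mean of at least 10 junction reads. It comprised 494 events of 138 genes, out of 94061 events with that many reads in the table. Of the chromosome 19 ZNF events, 367 were cassette exons, 57 pairs of mutually exclusive exons, 36 alternative 3′ splice sites, 24 alternative 5′ splice sites and 10 retained introns. Another 375 events of these genes had fewer reads. The rule uses read numbers and no difference between the groups. At the limit, a ZNF888 cassette exon entered with 10 reads and a ZNF559 alternative 3′ splice site with 9.83 reads did not. Within 1 read of the limit, 30 events lay above it and 28 below it.

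HEK293T is a line derived from human embryonic kidney. RNA-Seq libraries came from 3 samples labelled SF3B1 K700K (WT) and 3 labelled SF3B1 K700E (MT), an isogenic pair in which the mutation sits at the endogenous locus, and neither group received a treatment. The series also holds DNA libraries from the Nalm-6 leukemia line, which carry no splicing measurement and were not used. The labels do not say that the samples of a group were separate cultures, so p-values measure only the spread between these samples. The MT values have no replicate number in the table, and their numbering here, from MT 1 to MT 3, follows the columns. Per event the table gives a list of 6 MT values, only 3 of them also as columns, and whether these 3 are the labelled MT samples is open. The table holds neither bases nor expression levels, so the genotype and the kidney origin were not checked from it.

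Most zinc finger genes of this chromosome arose by repeated duplication and still lie side by side in clusters. Many encode a KRAB domain near the N terminus, made of an A box and often a B box on separate small exons, followed by an array of C2H2 zinc fingers that reads DNA and usually sits on a single large last exon. KRAB recruits the corepressor TRIM28, which brings in the histone methyltransferase SETDB1, and many of these proteins silence transposable elements. SF3B1 is a subunit of the U2 snRNP, which recognises the branch point upstream of a 3′ splice site. Mutations at its residue K700 are known to shift the choice of 3′ splice site, so the comparison asks which of these genes' events differed between WT and MT cells.

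The splice sites of alternative 3′ splice site events whose WT and MT libraries did not overlap and whose means differed by more than 0.1 are shown from the GRCh38 reference, to let the choice between the sites be read. Each line holds the last 20 intron bases and the first 3 exon bases, 5′ to 3′ on the gene's strand, with the final AG of the intron in capitals. In ZNF561 the sites lie 13 bases apart in coding sequence on the minus strand, at chr19:9618177-9618199 for the upstream and chr19:9618164-9618186 for the downstream window.
ZNF561 upstream: ccttcttacttttccactAGggt
ZNF561 downstream: ccactagggtttttttccAGgga
In ZNF557 they lie 21 bases apart on the plus strand, at chr19:7075635-7075657 and chr19:7075656-7075678.
ZNF557 upstream: actcatttctcctcctccAGctc
ZNF557 downstream: tctgtcttccctgttcccAGcct

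In 10 genes the alternative 3′ splice sites lay only 3 bases apart. Their upstream windows are shown because all 10 read AAGCAG across the intron end, so that AG closes the intron at either position. The windows lie at chr19:21744113-21744135 on the minus strand (ZNF100), chr19:21098792-21098814 on the plus strand (ZNF714), chr19:21405738-21405760 on the plus strand (ZNF493), chr19:34739503-34739525 on the plus strand (ZNF181), chr19:34683132-34683154 on the plus strand (ZNF302), chr19:34933605-34933627 on the plus strand (ZNF30), chr19:36473007-36473029 on the minus strand (ZNF566), chr19:37708010-37708032 on the minus strand (ZNF607), chr19:40081915-40081937 on the minus strand (ZNF780A) and chr19:40047471-40047493 on the minus strand (ZNF780B).
ZNF100: gttatttatttctaataaAGcag
ZNF714: gctatttacttttaataaAGcag
ZNF493: gttatttatttttaataaAGcag
ZNF181: ttctgtattcttcctgtaAGcag
ZNF302: ttctatatttttcctgtaAGcag
ZNF30: ctacattcttatctcataAGcag
ZNF566: tttgttacttcttttgtaAGcag
ZNF607: gcacttcttttctttgtaAGcag
ZNF780A: catgtgtcgtttcttttaAGcag
ZNF780B: catgtgttatttcttttaAGcag

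The measurement for each event and library is the inclusion level, a fraction from 0 to 1. It is the share of the form that holds the cassette exon, the longer exon or the retained intron, after division by the length of each form. All differences below are MT minus WT. Of the 494 events, 46 had a level of 1 and 1 had a level of 0 in every library, and the other 447, in 134 genes, were tested. The test was limma with Benjamini-Hochberg adjustment over all 83581 events tested in the table, and a call needed an adjusted p under 0.05 and a difference above 0.1.

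No chromosome 19 ZNF event was called by limma, against 26 calls among all events tested, or 0.0311%. At an unadjusted limma p under 0.05 there were 23 of 447 events, 5.15%, beside 4.47% over all events. The 13 alternatives, among them a logit and no transform, also called 0 of them, and called 0 to 37 of all events. The median difference was −0.003, against −0.002 over all events. Of the 447 events, 233 had a lower and 212 a higher mean in MT, and 2 had equal means.

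The libraries of WT and MT did not overlap in 34 of the 447 events, 7.61%, against 5.46% of all events. MT lay higher in 13 of them, 2.91% against 2.32% of all events. It lay lower in 21, 4.7% against 3.15%. These 34 events came from 28 genes. A difference above 0.1 together with no overlap was found in 22 events of 20 genes, 4.92% of those tested against 1.73% of all events, and 7 of the 22 were higher and 15 lower in MT. They had 10 to 54.5 mean reads. The depth of these genes was low, as given further on. This joint count was not split by depth, and the reason for the excess over all events was not tested.

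**Figure D1:**
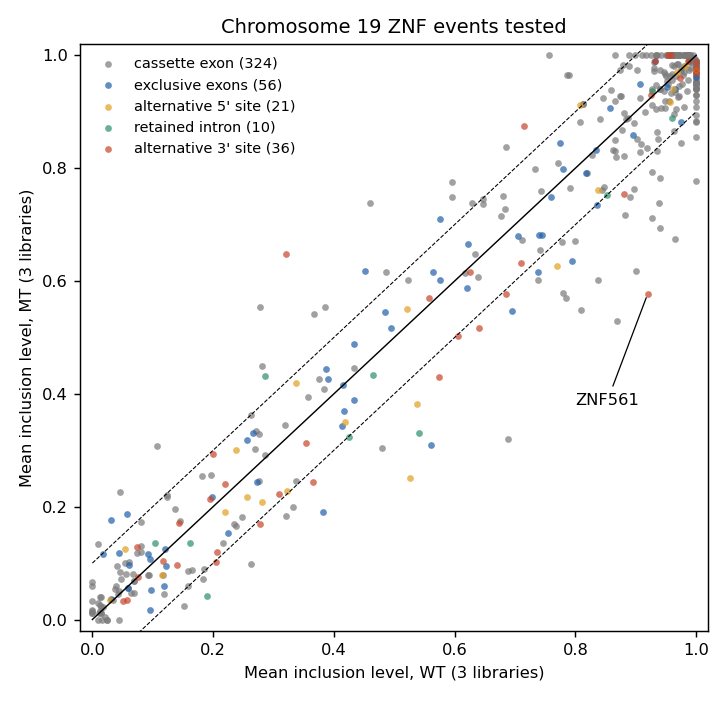
Mean inclusion level in WT (x axis, 3 libraries) and in MT (y axis, 3 libraries) of the 447 tested events, each point 1 event coloured by its type, with the number of events in brackets. The solid line marks equal levels and the dashed lines a difference of 0.1. At the upper right corner, 169 events have means above 0.9 in both groups, 50 at the lower left have means below 0.1 in both, and 84 events differ by more than 0.1.

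The alternative 3′ splice site of ZNF561, a gene of a cluster on the short arm, stood closest to the threshold. The level of the longer form, made with the upstream site, was 0.906, 0.886 and 0.966 in the WT libraries and 0.551, 0.584 and 0.594 in the MT libraries. All 3 MT libraries lay below all WT libraries, and the gap between the groups was wider than the spread within either. The difference was −0.343 ± 0.0273 (SE, n = 3 and 3), with an unadjusted limma p of 2.3e-05 and a Benjamini-Hochberg adjusted p of 0.0553, so the event was not called. Over the alternatives its adjusted p ranged from 0.0539 to 0.892. The event rested on 49.8 mean reads. The 13 bases between the sites, chr19:9618167-9618179, are coding sequence and shift the reading frame. In the annotation the upstream site ends an intron in 16 and the downstream site in 1 of 21 transcripts of the gene.

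ZNF561 had 25 events in all, and none of them was called. A pair of cassette events read the same exon with either start. The 89-base exon, from the upstream site, had levels of 0.963, 1 and 0.95 in WT and 1 in every MT library, on 78.6 reads. The 76-base exon, from the downstream site, had 0.928, 1 and 0.922 in WT and again 1 in every MT library. So the 3 MT libraries listed no skipping of either exon, WT 1 and WT 3 listed a little and WT 2 none, and the groups met at 1.

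Elsewhere in the gene, alternative 3′ splice sites 55 bases apart had longer-form levels of 0.215, 0.207 and 0.198 in WT against 0.139, 0.088 and 0.134 in MT, on 62.2 reads. The groups did not overlap, with a difference of −0.0863 ± 0.017 and an adjusted limma p of 0.856. A 48-base cassette exon of the 5′ UTR also had all its MT levels, 0.092, 0.072 and 0.107, below those of WT, 0.135, 0.194 and 0.227. The 127-base cassette exon on 113.75 reads, the deepest event of the gene, had mean levels of 0.884 (WT) and 0.886 (MT). The gene on the opposite strand, ZNF561-AS1, had 1 event in the set, with overlapping groups at 0.384 in WT and 0.409 in MT. The kit marks strand, but the strand setting of the authors' counting is not given in the sources used here.

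Alternative 3′ splice sites as a class had 6 of 36 events without overlap, 16.7%, against 9.29% of all alternative 3′ splice sites tested, and 3 lay in each direction. At an unadjusted limma p under 0.05 there were 3, ZNF561, ZNF30 and ZNF557, which is 8.33% against 6.24% of all alternative 3′ splice sites tested. All 72 sites of these 36 events follow an AG in the reference. The distance between the sites was 3 bases in 10 events, 4 to 9 bases in 5, 10 to 30 bases in 7 and more than 30 bases in 14. In the same order, 2, 1, 2 and 1 events had groups that did not overlap.

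**Figure D2:**
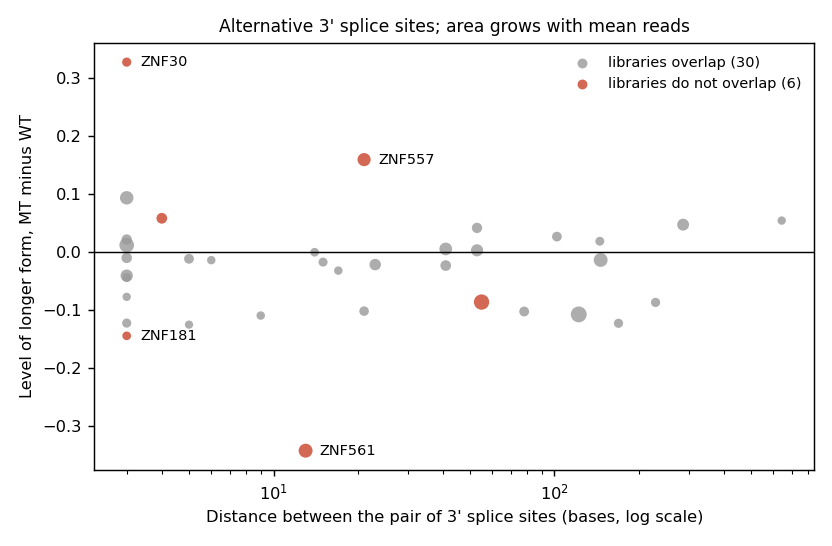
Difference in the level of the longer form (y axis, MT minus WT) against the distance between the upstream and downstream 3′ splice site (x axis, bases, log scale) for the 36 alternative 3′ splice site events. Red points are the 6 events whose WT and MT libraries do not overlap, and larger points have more reads. ZNF561 lies lowest at −0.343 and ZNF30 highest at 0.328.

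The events with sites 3 bases apart formed a set of like structure. AAGCAG was read at 10 of 10 of these sites on chromosome 19 ZNF genes. It stood at 1 of 15 such events of ZNF genes on other chromosomes, 6.67%, and at 57 of 623 in genes that are neither, 9.15%. In 8 of the 10 genes the downstream site began an exon of 96 bases and the upstream site the same exon with 3 more. Use of the upstream site ranged from a WT mean of 0.141 in ZNF780B to 0.709 in ZNF493, so the genes were spread widely between the sites. The sequences above fall into look-alike groups, with ZNF100, ZNF493 and ZNF714 in one, ZNF181 and ZNF302 in another and ZNF780A and ZNF780B in the last. Related genes of this kind can share reads, and how the authors' aligner assigned such reads is not given in the sources used here. The identity of the exons was not measured.

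Between WT and MT these 10 events went both ways, with higher means in MT in 4 and lower in 6 and a median difference of −0.0253. ZNF30 had upstream-site levels of 0.303, 0.376 and 0.281 in WT against 0.695, 0.475 and 0.774 in MT. The MT libraries all lay above WT but differed among themselves by more than the WT libraries did. The difference was 0.328 ± 0.094, on 16 reads, with an unadjusted limma p of 0.0231 and an adjusted p of 0.856. ZNF181, from the same cluster, lay the other way, at 0.566, 0.524 and 0.631 in WT and 0.445, 0.513 and 0.329 in MT. Its difference was −0.145 ± 0.0621 on 13.3 reads, and the nearest libraries of the groups were 0.524 and 0.513. ZNF302, their neighbour, overlapped, with 0.276, 0.342 and 0.445 in WT and 0.443, 0.169 and 0.329 in MT (this gene and the next were chosen after their values were seen). ZNF714, the deepest of the 10 with 55.9 reads, had 0.595, 0.584 and 0.495 in WT and 0.484, 0.656 and 0.57 in MT, again with overlap.

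ZNF557 had longer-form levels of 0.73, 0.815 and 0.599 in WT against 0.816, 0.955 and 0.852 in MT, on 43.3 reads. The groups were parted by only 0.815 against 0.816. The difference was 0.16 ± 0.0754, with an adjusted limma p of 0.856. The 21 bases between its sites are coding and keep the frame, and each site ends an intron in 1 of the gene's 2 transcripts.

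Among 21 tested alternative 5′ splice sites, 1 had groups that did not overlap, 4.76% against 7.21% over all such events. It was in the 5′ UTR of ZNF302, where the sites lie 247 bases apart. The windows hold the last 3 exon bases and the first 20 intron bases, with the first 2 intron bases in capitals, at chr19:34677854-34677876 for the shorter and chr19:34678101-34678123 for the longer exon, on the plus strand.
ZNF302 shorter exon: ccgGCaagtgtgggtcgcggcga
ZNF302 longer exon: tggGTtcagtatctcggaatttc
The shorter exon ends at a GC, a rarer form of 5′ splice site, and the longer one at a GT. The level of the longer exon was 0.444, 0.5 and 0.636 in the WT libraries against 0.273, 0.348 and 0.13 in MT, so that each MT library lay below each WT library. The difference was −0.276 ± 0.0857, on 16.7 reads, with an adjusted limma p of 0.856.

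Cassette exons made up 324 of the tested events, and 22 had groups that did not overlap, 6.79% against 4.59% of all cassette exons. MT was higher in 10 and lower in 12. For 4 of the genes named by difference and separation, MT had more of the exon. In ZNF527, a 325-base form of a coding exon had 0.857, 0.81 and 0.6 in WT and 1 in every MT library, on 12.3 reads. This event had a mean of only 1.33 skipping reads in WT. Its difference was 0.244 ± 0.079 with an adjusted limma p of 0.654. The 96-base form of this exon, read in a separate event on 22.1 reads, had 0.905, 0.889 and 0.8 in WT and again 1 throughout MT. The forms end at the same base and are not separate observations.

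The ZNF536 exon lies in the 5′ UTR. This gene, a zinc finger repressor known from neural differentiation, had 0.926, 0.863 and 0.907 in WT and 1 in every MT library, on 17.7 reads. ZNF724 had a 122-base 5′ UTR exon at 0.135, 0.1 and 0.087 in WT and 0.2, 0.373 and 0.347 in MT. The exon was the minor form in both groups, and the difference was 0.199 ± 0.0557. In ZNF569 a 240-base exon, listed at 0, 0 and 0.03 in WT, had 0.238, 0.05 and 0.116 in MT. These 3 had adjusted limma p-values of 0.856.

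A lower level in MT was seen in ZNF708, where a 182-base exon had 0.778, 0.652 and 0.636 in WT and 0.455, 0.25 and 0.257 in MT. This was the largest mean difference among the events named for separation, −0.368 ± 0.0808, and it rested on 12.3 reads. ZNF28 had a 127-base exon at 1, 0.846 and 0.667 in WT and 0.556, 0.63 and 0.619 in MT. It had 9 mean reads in WT, of which 1 was of skipping, and 17.5 in MT, so it met the read minimum only through MT. The WT libraries of ZNF28 were far apart and the lowest of them stood close to MT. ZNF283 had a 165-base 5′ UTR exon at 0.778, 0.727 and 0.833 in WT and 0.706, 0.529 and 0.5 in MT. ZNF461 had 0.789, 1 and 0.858 in WT and 0.714, 0.721 and 0.714 in MT.

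ZNF584 had a 127-base exon at 1, 0.923 and 1 in WT and 0.857, 0.864 and 0.81 in MT. The difference was −0.131 ± 0.0308, on 27 reads. The same exon measured against other flanking exons had mean levels of 0.68 (WT) and 0.75 (MT) on 40.2 reads, the opposite direction. The remaining cassette exons of this kind were in ZNF567 (−0.105, on 26.6 reads), ZNF772 (−0.128, on 10.5) and ZNF628 (−0.165, on 10, the read minimum). ZNF772 had 6.67 mean reads in WT and 14.3 in MT, so it met the minimum only through MT. All of these exons with lower levels had an adjusted limma p of 0.856.

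**Figure D3:**
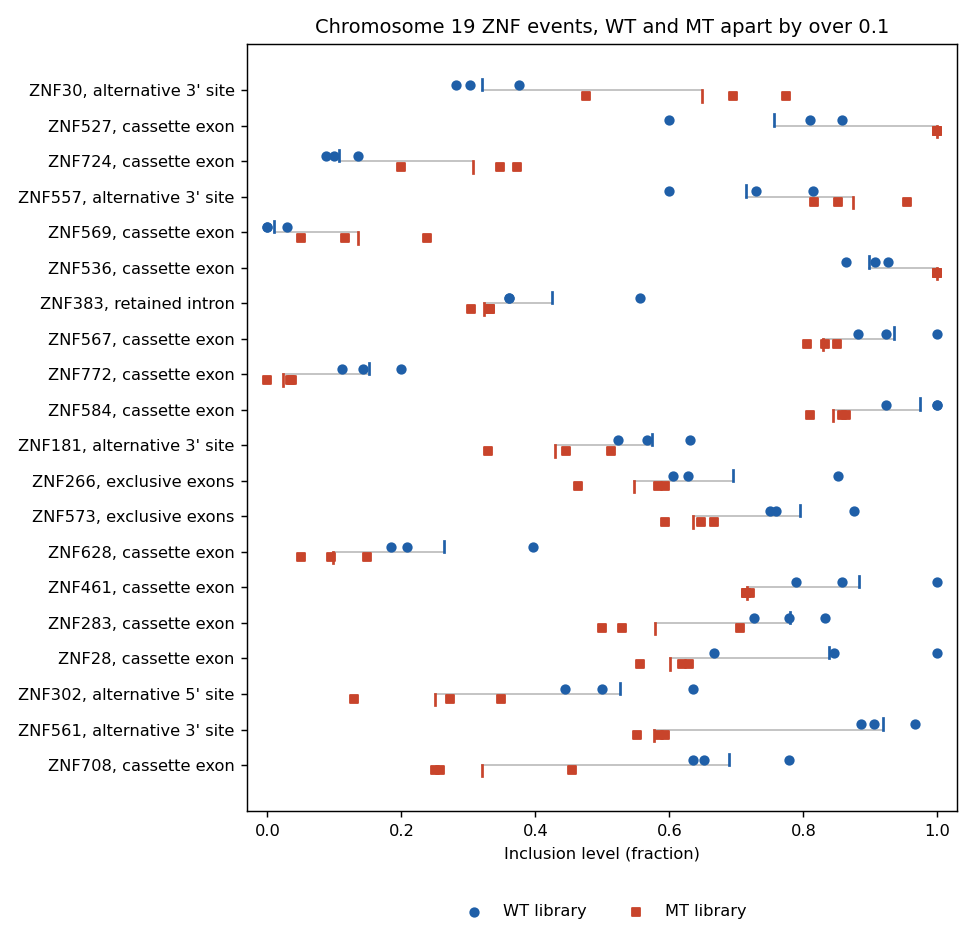
Inclusion level (x axis, fraction) in each WT library (blue circles) and each MT library (red squares) for 20 genes, 1 event per gene, whose libraries do not overlap and whose means differ by more than 0.1. Vertical ticks are group means, joined by a grey line. ZNF561 and ZNF708 at the bottom have the largest drops in level, and in ZNF557 and ZNF181 the nearest libraries of the groups almost touch.

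Particular lengths recurred among the cassette exons of these genes. Of 296 distinct cassette exons, 55 were exactly 127 bases long, 18.6%, against 6.62% in ZNF genes of other chromosomes and 0.707% in all genes outside the set. Another 19 were 96 bases long, 6.42% against 3.57% and 1.04%. Exons encoding the KRAB A box and the KRAB B box commonly have these lengths, in that order. The table names no protein domains, so which of these exons encode a box was not checked. Skipping of a 127-base exon breaks the reading frame, and skipping of a 96-base exon keeps it.

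The 127-base exons were mostly included in both groups. They gave 77 events in 57 genes, all in coding sequence, and 64 of them were tested. Over those tested, the WT means ran from 0.0913 to 1 with a median of 0.962, and the MT means from 0.078 to 1 with a median of 0.954. In 55 of the 77 events both means were above 0.9, while the exon of ZNF71 (chosen after its values were seen) was mostly skipped, at 0.0913 in WT and 0.078 in MT. Groups did not overlap in 2 events, ZNF584 and ZNF28, both lower in MT, which is 3.12% of the 64. Over all tested cassette exons whose length is not a multiple of 3 the share was 4.4%. The 96-base exons gave 27 events in 19 genes, with 20 tested, and WT medians of 0.964 and MT medians of 0.969. Of the 20, 1 event had no overlap, that of ZNF527, which is 5% against 4.9% of all tested cassette exons whose length is a multiple of 3.

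**Figure D4:**
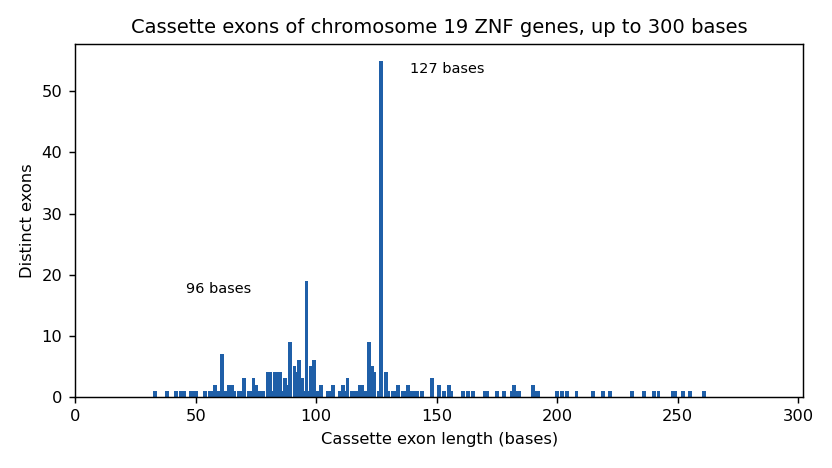
Number of distinct cassette exons (y axis) of each length in bases (x axis) among chromosome 19 ZNF events, shown for the 287 of 296 exons of up to 300 bases. The bar at 127 bases reaches 55 exons and that at 96 bases 19.

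Frame was tallied for cassette exons of every length. Of those whose length is a multiple of 3, 11 of 99 tested events had groups that did not overlap, 11.1%, against 4.9% of all such cassette exons. Of the others it was 11 of 225, 4.89%, against 4.4%. The frames were not tested against each other. The place in the annotation was found only for the chromosome 19 ZNF events, so the share of 5.46% over all events stands for every place. By place, 23 of 349 tested events in coding sequence did not overlap, 6.59%, and 10 of 81 in the 5′ UTR, 12.3%, with 5 in each direction. In the other UTR events it was 1 of 4, in ZNF561, and in the noncoding exons 0 of 13.

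Mutually exclusive exons had 4 of 56 events without overlap, 7.14% against 6.5% of all such events, all lower in MT. ZNF266 had levels of 0.628, 0.852 and 0.606 in WT against 0.594, 0.583 and 0.464 in MT, on 54.5 reads. ZNF573 had 0.875, 0.75 and 0.759 in WT and 0.667, 0.593 and 0.647 in MT. Which exon of the pair counts as included depends on the strand convention of the counting tool, which was not checked, so the direction is that of the listed level only. The retained introns had 1 of 10 without overlap, 10% against 7.09%, in ZNF383, with 0.36, 0.556 and 0.36 in WT and 0.304, 0.333 and 0.333 in MT. Each of the 3 had an adjusted limma p of 0.856.

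In 4 of the 5 event types, the event with most reads differed by less than 0.1. The cassette exon of ZNF146, a zinc finger gene without a KRAB box, had 304 reads, the most of any member, and mean levels of 0.997 ± 0.00577 for WT and 0.995 ± 0.00503 for MT (SD, n = 3). The retained intron of ZNF317, on 62.9 reads, had means of 0.162 ± 0.0449 and 0.135 ± 0.0201. The deepest alternative 5′ splice site was in ZNF561, on 61.5 reads, with 0.969 in WT and 0.97 in MT. The deepest pair of exclusive exons, also in ZNF561 and on 112 reads, had 0.0593 and 0.055.

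The deepest alternative 3′ splice site was in ZNF473, whose protein takes part in the processing of histone mRNA ends. Its longer 5′ UTR exon had 0.714, 0.692 and 0.647 in WT and 0.69, 0.505 and 0.535 in MT on 67.4 reads, where MT 1 overlapped WT. Both cassette events of ZNF473 had no overlap (they were chosen after their values were seen). The 200-base coding exon had 0.932, 0.919 and 0.902 in WT and 0.833, 0.83 and 0.843 in MT, on 71.2 reads. Its difference was −0.0823 ± 0.00953, small but wider than the spread in either group, with an adjusted limma p of 0.856. The 78-base form, from the downstream site, had 0.918, 0.906 and 0.897 in WT and 0.796, 0.846 and 0.845 in MT. The forms end at the same base and are not separate observations.

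Events were unequally spread over the genes. ZNF562 had 26 events, the most, all tested and none without overlap, with differences from −0.0373 to 0.0833. ZNF559 had 19, of which 16 were tested, and differences from −0.339 to 0.18 without a single separated event. Its 222-base exon had 1, 0.7 and 1 in WT and 0.714, 0.259 and 0.882 in MT, on 14.2 reads, and WT 2 and MT 2 lay well below the other libraries of their groups (this exon was chosen after its values were seen). One event of the read-through gene ZNF559-ZNF177 shares this locus and overlapped between the groups. Events of 1 gene often share junctions, so the 494 events hold 406 distinct alternative regions, and 43 genes had a single event.

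Along the chromosome, the genes fell into 18 groups parted by gaps of more than 1 Mb. The group with most events without overlap held 21 genes of the long arm, ZNF527, ZNF461, ZNF567, ZNF569, ZNF573 and ZNF383 among them, with 10 of 72 tested events, 13.9%, against 5.46% of all events, and 5 in each direction. The neighbouring group of ZNF302, ZNF181 and ZNF30 had 3 of 9. ZNF473, which stands alone, had 2 of 3, both reading the same exon. The 13 genes around ZNF45, ZNF283 and ZNF226 had 4 of 46, 8.7%. The group with ZNF561, ZNF562, ZNF559 and ZNF266 had 5 of 95, 5.26%. The largest group, 32 genes at the long arm's end with ZNF584, ZNF772 and ZNF628, had 3 of 67, 4.48%. The 22 genes around ZNF28 had 1 of 59, 1.69%. The groups were not tested against each other.

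Large differences were less frequent at higher read depth. The tested chromosome 19 ZNF events had a median of 22.8 mean reads, against 82.4 over all events tested. Their median SD over libraries was 0.0566 for WT and 0.0544 for MT, against 0.0171 and 0.0208 over all events. A difference above 0.1 was found in 84 events, 18.8%, against 5.8% of all events. With 10 to 20 reads it was 29.1% of 199 events, against 24.4% of all events of that depth. It was 12.7% of 181 events against 9.42% with 20 to 50 reads, and 4.48% of 67 events against 1.75% with 50 or more. The share without overlap was 5.53%, 9.94% and 7.46% at these depths in turn, against 5.64%, 6.08% and 5.23% of all events.

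**Figure D5:**
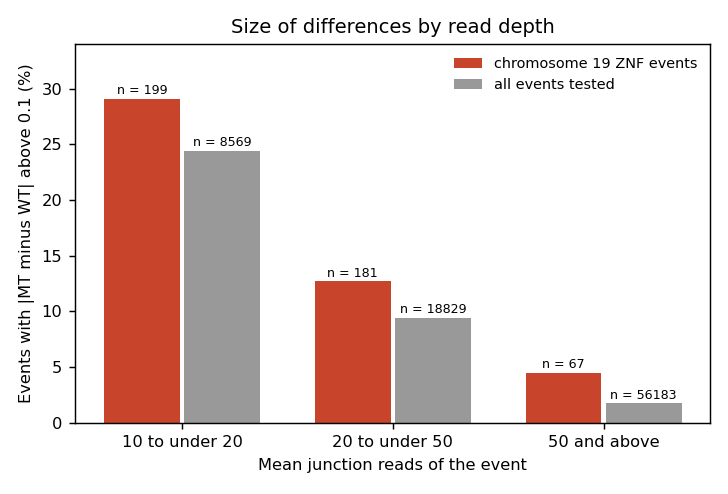
Percentage of tested events with a difference in mean inclusion level above 0.1 in either direction (y axis), by mean junction reads of the event (x axis), for chromosome 19 ZNF events (red) and all events tested (grey), with the number of events above each bar. The red bars fall from 29.1% to 4.48% and the grey bars from 24.4% to 1.75%.

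The mean absolute difference between 2 libraries, taken over the 447 events, was 0.087 to 0.0933 for the 3 pairs of WT libraries and 0.0905 to 0.0972 for the 3 pairs of MT libraries. For the 9 pairs of a WT with an MT library it was 0.087 to 0.102. Libraries of different genotype were thus about as far apart as libraries of the same genotype. Over all events tested the same measure ran from 0.0416 to 0.0498 between the genotypes and from 0.0433 to 0.0523 within them.

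ZNF genes on other chromosomes, with 1022 tested events and a median of 41.5 reads, had 0 calls by limma. At an unadjusted limma p under 0.05 they had 58 events, 5.68% against 4.47% of all events, and 5.97% of their events had no overlap. Their share with a difference above 0.1 was 11.7%. The other genes of chromosome 19, with 4292 events and a median of 96.6 reads, had 1 call, 6.69% without overlap and 5.13% with such a difference. The 10 tested events of chromosome 19 zinc finger genes with other names, such as ZFP and ZSCAN, had 0 calls, 0 at an unadjusted p under 0.05 and 0 without overlap.

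Splice events in the genes of proteins through which KRAB zinc finger proteins act were measured more deeply, with a median of 215 reads. Of 226 tested events in 22 such genes, limma called 0, as did each alternative, 5 had an unadjusted p under 0.05, 2.21% against 4.47% of all events, and 14 had no overlap, 6.19% against 5.46%, with 7 in each direction. In TRIM28, the corepressor bound by KRAB, the cassette exon of lowest p had 1 in every WT library and 0.998, 0.999 and 1 in MT, on 1190 reads. In SETDB1, the methyltransferase, it had 1 in every WT library and 1, 0.974 and 0.993 in MT. The largest separation was in CHD3, a subunit of the NuRD remodelling complex (chosen after its values were seen). Its alternative 3′ splice site had a longer-form level of 0.243, 0.275 and 0.279 in WT against 0.437, 0.417 and 0.337 in MT, a difference of 0.131 ± 0.0326 with an adjusted limma p of 0.856.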

How the data were processed

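RNA-Seq libraries of HEK293T WT (n = 3) and MT (n = 3) were made with a stranded kit and sequenced from both ends. The submitters' processing notes name STAR, StringTie and GRCh38, and Methods name the rMATS model; the versions are not given in the sources used here. The deposited inclusion levels are a fraction with 3 decimals, computed by the authors from junction reads. The deposited mean junction reads of each group are a signal that the authors did not normalize, and for MT they average all 6 listed values. Another 6 columns, which list the values of several libraries together, were not used, and the authors' own p-values and differences were not used either. The depth of each library is unknown, and the depth of an event is its mean junction reads, a median of 81.3 in WT and 82.5 in MT.

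Of 114349 events, those with a mean of at least 10 reads over the groups, a level in all libraries and levels that vary were tested in limma 3.58.1 under R 4.3.3, after an arcsine square-root transform of each level and with the variance trended on log2 mean reads. The comparison was tested first on simulated data, with large changes planted only in events of intermediate level with 50 or more reads. Of the 447 chromosome 19 ZNF events tested, 67 had that many reads. The simulation does not show what could be detected in the others. rMATS itself was not run. Differences and their SE are on the scale of the level. Annotation and sequences came from GENCODE and GRCh38. Exon starts in the table are counted from 0, since 99.9% of 4453 chromosome 19 cassette exon starts match the annotation after adding 1, and printed coordinates count from 1.

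Named were events that were called, then 1 event per gene with a difference above 0.1 and groups that do not overlap (20 genes), the deepest event of each type, and the TRIM28 and SETDB1 events of lowest p. The members, lists and rules were chosen with earlier results of these data known. Alternatives changed the transform, the variance trend, the read minimum, the handling of constant events and the libraries used.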

Additional observations from a re-analysis of the deposited data

How the results depend on the processing

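The count of 0 calls among chromosome 19 ZNF events and in the corepressor list was the same under all 13 alternatives, with limma in each, while those alternatives called 0 to 37 of all events tested. The values of the named events kept their direction in 247 of 247 alternative values, and none was called. That direction could not reverse. The transform, trend, read minimum and constant-event settings leave the difference itself unchanged. In these events every MT library lay on the same side of every WT library, so leaving out 1 library keeps the sign. The median difference was 0 with constant events kept. Leaving out 1 library at a time, it ran from −0.00992 to 0.00233, and it was above 0 only without MT 3. Leaving out 1 library at a time also raised the number of events without overlap from 34 to between 57 and 72, since fewer libraries separate more easily. No paired analysis was possible because the MT columns carry no replicate number. Low read numbers limit these results: 199 of the 447 tested events had 10 to 20 reads.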
